A study of Rattus norvegicus with 32 samples.

Results

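Collagen transcripts were counted by mRNA sequencing in 2 brain regions, brainstem and hypothalamus, of rats that had lost their adrenal glands or kept them and had breathed ozone or clean air. Members were all genes whose symbol has the form Col, a number, a and a number, which gave 43 of the 22587 genes in the table. Of these, 36 had a mean normalized count of 10 or more in at least 1 tissue and were tested among 14814 genes, and 34 reached that mean in both tissues. Col22a1 passed only through the hypothalamus and Col28a1 only through the brainstem, so these genes had to differ between the tissues. All rats were Wistar Kyoto, an inbred strain, and were 13 weeks old. The 4 conditions were a sham operation followed by filtered air, a sham operation followed by ozone, total bilateral adrenalectomy (ADREX) followed by filtered air, and ADREX followed by ozone. ADREX takes away the gland that secretes corticosterone. Ozone, an oxidant gas, was given to the whole body at 0.8 ppm for 4 hours, air lasted as long, and the tissue was taken directly after. With 2 tissues this made 8 groups of 4 libraries, 32 in all. No label says whether libraries came from separate animals, so the p-values refer to differences between these libraries, whose spread may be technical.

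Collagens are proteins of the extracellular matrix and the cell surface, built from alpha chains that wind around each other into a stiff helix. Fibrillar collagens such as type I and type III make the fibrils of connective tissue and, in the brain, lie mainly in the meninges and the walls of larger vessels. Type IV collagens form the sheet-like network of the basement membrane that surrounds capillaries, and FACIT collagens (fibril-associated collagens with interrupted helices) sit on the surface of fibrils. Other classes are the beaded filaments of type VI, collagens that span the cell membrane, the short-chain networks of type VIII and type X, and the multiplexin type XVIII, a basement membrane proteoglycan that releases endostatin. By these classes the table held 11 fibrillar genes (11 tested), 6 basement membrane network genes (6), 6 beaded filament genes (3), 9 FACIT genes (8), 4 transmembrane genes (3), 3 short-chain network genes (2), 1 multiplexin (1), and 3 anchoring or other genes (2). Col15a1 and Col21a1 were not analysed here.

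The 6 type IV genes lie in the genome as head-to-head pairs, in which the partners are read in opposite directions from neighbouring starts. In the RefSeq annotation of GRCr8 the starts of Col4a1 and Col4a2 were 77 bases apart, those of Col4a3 and Col4a4 413 bases, and those of Col4a5 and Col4a6 1415 bases. Promoter windows of 300 bases (250 before to 50 after the start) are shown for 4 of these genes, because Col4a3 is the member with the firmest change among the treatment groups and its partner is read from the same stretch. They are followed by the windows of Col7a1 and Col20a1, which rose together in the sham hypothalamus. Capitals mark matches to the GC box GGGCGG, the CCAAT box CCAAT, the TATA box TATAAA or the glucocorticoid half-site AGAACA, on either strand. The positions are chr16:84885347-84885646 on the plus strand for Col4a1, chr16:84885471-84885770 on the minus strand for Col4a2, chr9:91323740-91324039 (plus) for Col4a3, chr9:91323528-91323827 (minus) for Col4a4, chr8:118483114-118483413 (plus) for Col7a1 and chr3:188479252-188479551 (plus) for Col20a1, all from RefSeq, GRCr8.
Col4a1: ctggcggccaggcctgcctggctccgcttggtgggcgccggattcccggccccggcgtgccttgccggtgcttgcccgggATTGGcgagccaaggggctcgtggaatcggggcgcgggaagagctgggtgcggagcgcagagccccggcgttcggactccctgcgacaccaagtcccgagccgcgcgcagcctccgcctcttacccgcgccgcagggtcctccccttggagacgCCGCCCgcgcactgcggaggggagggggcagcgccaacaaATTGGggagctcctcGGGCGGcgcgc
Col4a2: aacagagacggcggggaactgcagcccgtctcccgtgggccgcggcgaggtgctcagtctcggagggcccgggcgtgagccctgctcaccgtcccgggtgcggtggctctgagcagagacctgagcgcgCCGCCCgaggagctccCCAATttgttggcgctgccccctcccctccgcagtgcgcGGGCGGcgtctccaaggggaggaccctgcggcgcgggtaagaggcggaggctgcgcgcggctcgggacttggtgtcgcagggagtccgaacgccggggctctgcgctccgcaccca
Col4a3: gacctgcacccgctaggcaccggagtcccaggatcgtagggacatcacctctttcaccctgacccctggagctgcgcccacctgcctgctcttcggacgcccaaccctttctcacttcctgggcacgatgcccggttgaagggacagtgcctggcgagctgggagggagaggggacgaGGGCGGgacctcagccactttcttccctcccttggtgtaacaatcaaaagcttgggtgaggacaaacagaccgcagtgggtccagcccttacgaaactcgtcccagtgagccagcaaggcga
Col4a4: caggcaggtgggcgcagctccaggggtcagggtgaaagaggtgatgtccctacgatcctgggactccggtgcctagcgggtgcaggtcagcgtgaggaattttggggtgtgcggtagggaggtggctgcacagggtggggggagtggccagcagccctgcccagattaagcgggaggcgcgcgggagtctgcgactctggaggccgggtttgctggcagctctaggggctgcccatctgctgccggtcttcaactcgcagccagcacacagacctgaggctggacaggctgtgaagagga
Col7a1: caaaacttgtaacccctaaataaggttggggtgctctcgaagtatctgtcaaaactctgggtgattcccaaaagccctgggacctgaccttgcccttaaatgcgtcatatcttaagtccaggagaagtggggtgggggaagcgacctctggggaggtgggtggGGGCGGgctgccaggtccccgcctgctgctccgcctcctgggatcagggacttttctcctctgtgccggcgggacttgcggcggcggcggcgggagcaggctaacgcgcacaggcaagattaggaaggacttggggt
Col20a1: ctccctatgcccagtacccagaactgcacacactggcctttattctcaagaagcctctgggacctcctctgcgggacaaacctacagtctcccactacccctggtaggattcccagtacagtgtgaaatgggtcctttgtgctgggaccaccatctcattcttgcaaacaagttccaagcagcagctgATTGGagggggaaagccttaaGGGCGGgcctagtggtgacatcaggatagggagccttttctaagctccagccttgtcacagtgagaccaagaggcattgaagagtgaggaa

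The windows of Col4a1 and Col4a2 share 176 bases, and those of Col4a3 and Col4a4 share 88. The Col4a1 window held 2 GC boxes and 2 CCAAT boxes at a GC content of 75%, while the Col4a3 window held 1 GC box at 62% and the Col4a4 window held none of these motifs at 65.3%. A RefSeq window was found for 34 of the 43 members, 37 windows in all since some genes have several starts. Not matched were Col1a1, Col2a1, Col3a1, Col6a2, Col9a3, Col12a1, Col14a1, Col22a1 and Col25a1. The GC box occurred in 20 of the 37 windows (54.05%) against 33.06% of all 33469 promoter windows of the same length. Some of the 20 count the same boxes again in overlapping windows, as for Col4a1 with Col4a2 and for Col24a1. The CCAAT box occurred in 32.43% against 37.49%, the TATA box in 10.81% against 14.22% and the half-site AGAACA in 13.51% against 20.68%. The full glucocorticoid response element, which is the half-site followed by NNN and its reverse complement TGTTCT, was in 0 of the 37 windows and in 5 of all windows. These matches describe the letters of the windows and no binding was measured.

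Depth ran from 6.94 to 12.39 M reads per brainstem library and from 6.44 to 9.11 M per hypothalamus library. Normalized counts are not divided by transcript length, so levels are compared within a gene and not between genes. Markers of the hypothalamus were present as labelled: the orexin precursor Hcrt ranged from 493.2 to 1305 normalized counts there against 10.62 to 46.04 in the brainstem, and Tph2, the enzyme of serotonin neurons, ranged from 302.5 to 811.4 in the brainstem against 4.704 to 29.33 in the hypothalamus. Transcripts made by the liver (18 genes such as albumin) exceeded 2000 per M reads in 4 libraries, namely number 18 of sham ozone in each tissue and, in the hypothalamus, ADREX air 68 and sham air 2. Summed choroid plexus markers were highest, at 2701 to 7750 normalized counts, in brainstem sham air 4, hypothalamus ADREX air 67 and hypothalamus ADREX ozone 82, and the first also had the highest sum of fibroblast markers in its tissue, as had the second. Some of the results that rest on these 7 libraries are given with and without them. The libraries rich in fibroblast or choroid plexus markers were picked without a set cutoff. Brainstem ADREX air 68, with a choroid plexus sum of 2427, was kept. So was hypothalamus ADREX ozone 84, whose fibroblast sum was 3242 against 3190 in ADREX ozone 82. In bulk tissue, fewer cells of a type and less RNA per cell cannot be told apart.

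**Figure D1:**
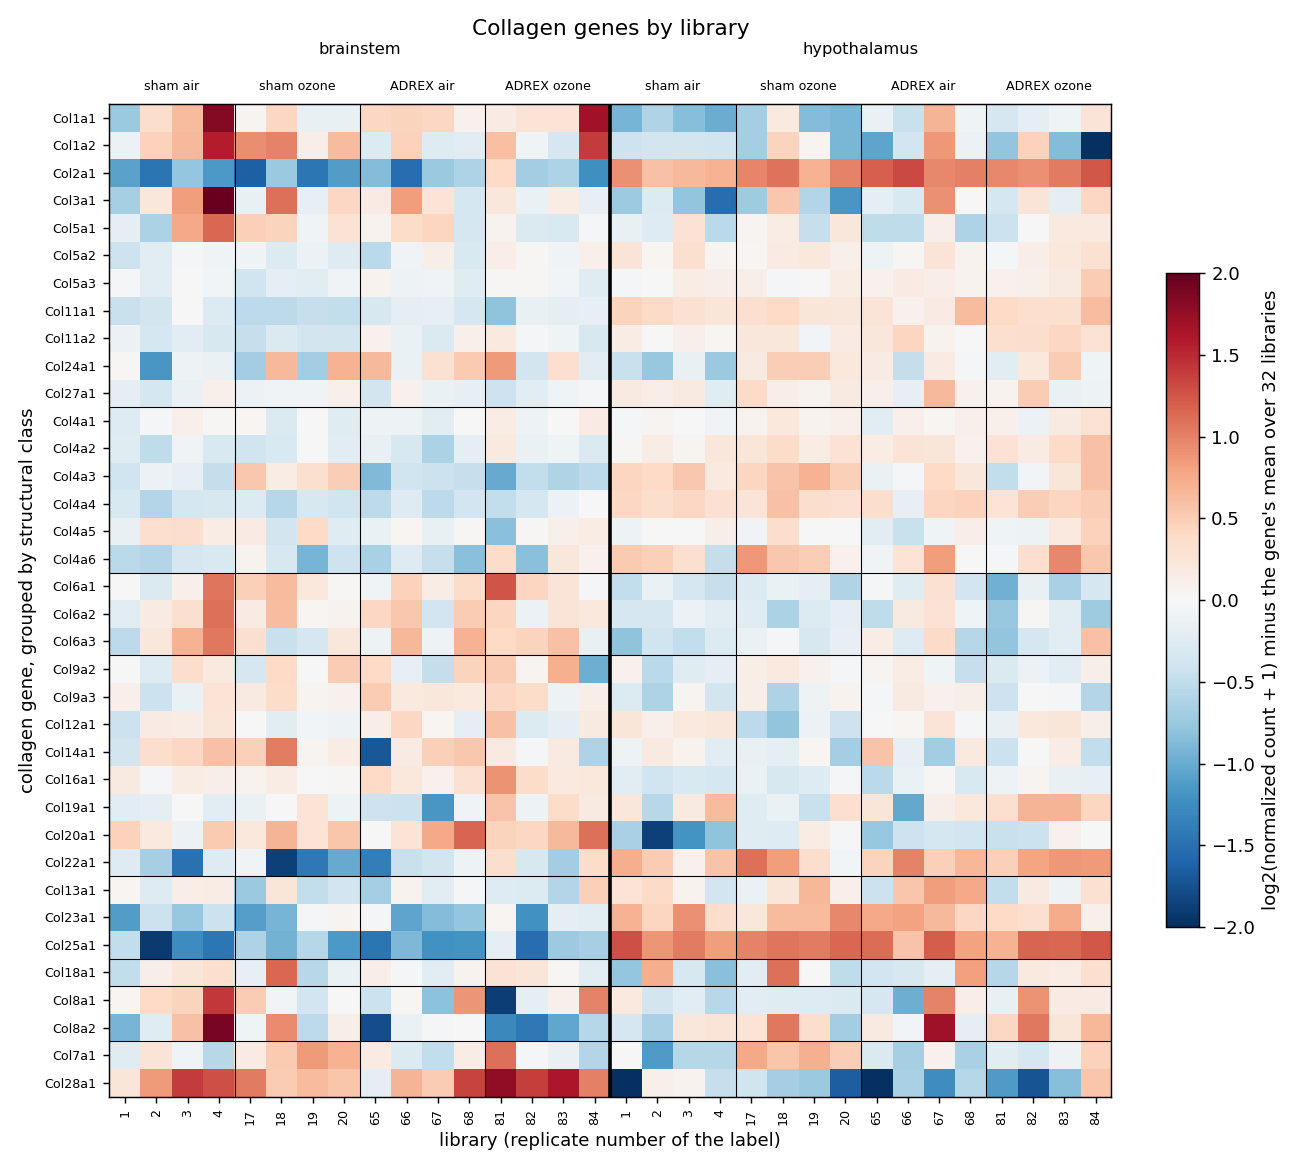
Normalized counts of the 36 tested collagen genes (rows, by class) in the 32 libraries (columns, by group), as log2(value + 1) minus the mean of the gene over the libraries. Colours are limited at 2 log2 units either way. The rows of Col25a1 and Col2a1 change colour between the tissues, and single columns such as brainstem sham air 4 stand out in the fibrillar rows.

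Like genes in general, collagen genes passed far more often between the tissues, in a comparison of 32 libraries, than between treatments, in comparisons of 8. Averaged over the 4 conditions, 24 of the 36 members differed between hypothalamus and brainstem, 14 higher and 10 lower in the hypothalamus (limma, Benjamini-Hochberg adjusted p under 0.05), against 54.5% of all genes tested (27.5% higher and 27.0% lower). Among the 34 members at a mean of 10 or more in both tissues the counts were 13 higher and 9 lower. The median log2 difference was -0.02 over the members and -0.005 over all genes. On reads recovered from the table, edgeR called 14 higher and 10 lower and DESeq2 13 and 11. In sham rats in air alone, 16 of 36 members passed, 10 higher and 6 lower, against 31.3% of all genes (16.2% higher and 15.1% lower). Among the 14 of these at a mean of 10 or more in both tissues, the calls of Col6a3, Col11a2, Col5a2, Col3a1 and Col4a2 were lost in 4, 3, 3, 2 and 1 alternatives, with adjusted p up to 0.128 (limma) for Col6a3. Leaving out brainstem sham air 1, 2, 3 or 4 or hypothalamus sham air 1 or 3 ended at least 1 of these calls.

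Transmembrane collagens were higher in the hypothalamus in 3 of 3 tested cases. The shares over all genes, 27.5% higher and 27.0% lower, stand beside this and the class counts that follow. The untested transmembrane gene, Col17a1, went the other way, with a mean of 9.33 in the brainstem and 4.79 in the hypothalamus. Col25a1, the neuronal collagen that binds amyloid beta, ranged from 11.5 through a median of 21.6 to 39.9 normalized counts over 16 brainstem libraries and from 68.2 through 96.4 to 113 over 16 hypothalamus libraries. The tissues did not overlap, and the log2 difference was 2.03 ± 0.12 (SE, adjusted p = 6.92e-15, limma), the largest among the members. In sham rats in air the libraries measured 11.5, 16.2, 18.7 and 32.3 in the brainstem and 82.9, 85.3, 95.01 and 113 in the hypothalamus, and no ozone or adrenalectomy comparison passed for this gene. Col23a1, which also spans the membrane, measured 51.4 ± 8.95 normalized counts (SD, n = 16) in the hypothalamus and 23.7 ± 7.75 in the brainstem, again without overlap, with a log2 difference of 1.13 ± 0.14 (adjusted p = 2.83e-08, limma). Col13a1, known from the neuromuscular junction, gave 0.35 ± 0.14 (adjusted p = 0.0355, limma), and this call was lost in 18 of 44 alternatives, with adjusted p up to 0.0921. It was lost without any 1 of 12 libraries. These were brainstem sham air 2 (0.0567), sham ozone 17 (0.0609) and 19 (0.0513), ADREX air 65 (0.0622) and ADREX ozone 83 (0.0619), and hypothalamus sham air 1 (0.0533) and 2 (0.0580), sham ozone 19 (0.0637), ADREX air 67 (0.0626) and 68 (0.0594), and ADREX ozone 82 (0.0540) and 84 (0.0579).

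Among the 11 fibrillar genes, 6 were higher and 3 lower in the hypothalamus. The higher ones were Col2a1, Col11a1, Col11a2, Col5a2, Col5a3 and Col27a1. Col2a1, the main fibrillar collagen of cartilage, ranged from 22.9 through a median of 37.1 to 97.2 in the brainstem and from 110 through 144 to 185 in the hypothalamus. No library of one tissue reached the range of the other, and the log2 difference was 1.90 ± 0.12 (adjusted p = 1.59e-14, limma). Col11a1, whose chain forms the core of cartilage fibrils, measured 576 ± 59.6 against 362 ± 48.6 (SD, n = 16), also without overlap, a difference of 0.67 ± 0.06 (adjusted p = 9.10e-11, limma). Its partner chain Col11a2 measured 1370 ± 145 against 1066 ± 149, a difference of 0.37 ± 0.05. The fibril-nucleating type V chains differed less, by 0.26 for Col5a2 and 0.22 for Col5a3, while Col5a1 at -0.28 did not pass. Col27a1, a collagen of developing cartilage, differed by 0.26 (adjusted p = 0.00547, limma). Its highest hypothalamus values, 206 and 188, were those of the marker-rich libraries ADREX air 67 and ADREX ozone 82. The others ran from 111 to 172.

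The 3 lower fibrillar genes were the chains of type I and type III collagen, the bulk of connective tissue fibrils. Col1a1 ranged from 93.7 through a median of 196 to 565 in the brainstem and from 78.5 through 120 to 252 in the hypothalamus, a log2 difference of -0.75 ± 0.18 (adjusted p = 0.000657, limma). Col1a2 gave -0.82 ± 0.21 (adjusted p = 0.00171, limma) and Col3a1 -0.59 ± 0.21 (adjusted p = 0.0174, limma), and all 3 genes overlapped widely between the tissues. In sham rats in air the difference was -1.36 for Col1a1 (adjusted p = 0.00341, limma) and -1.45 for Col3a1 (adjusted p = 0.00726, limma). Without brainstem sham air 4 the Col3a1 call in sham air was lost (adjusted p = 0.0628, limma), and without all 3 libraries rich in fibroblast or choroid plexus markers adjusted p was 0.0556.

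Genes that mark meningeal and perivascular fibroblasts moved the same way. Of 15 listed markers 13 were tested, and 9 were lower and 0 higher in the hypothalamus, among them Dcn, Lum, Ogn, Foxc1 and Aldh1a2. For this and the marker lists below, the shares over all genes tested were 27.0% lower and 27.5% higher. The summed level of the 15 listed markers ran from 3520 to 7277 normalized counts in the brainstem and from 2037 to 4281 in the hypothalamus. Dpep1 had a median of 0 in both tissues. Much of the sum came from Aldh1a1, Pdgfra and Slc13a3, with brainstem medians of 957, 876 and 575. Their hypothalamus medians were 218, 842 and 219. Whether the transcripts of these genes came from fibroblasts was not tested. Of 11 tested mural markers 6 were lower, of 12 endothelial markers 12, of 8 oligodendrocyte markers 8 (median log2 difference -1.17) and of 8 astrocyte markers 5, with 1 astrocyte marker higher. Neuron markers were split, 4 of 8 higher and 3 lower. Within the brainstem, Col1a1 spread from 93.7 to 565 among sham air libraries alone, and the highest, sham air 4, also had the highest fibroblast sum (7277). Brainstem ADREX ozone 84 went another way: its Col1a1 was 506 and its Col1a2 332, yet its Col3a1 was 135. The part of any cell type's content in the tissue differences of collagens was not tested.

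The 3 tested beaded filament genes, whose chains assemble into the type VI microfibrils around cells, were lower in the hypothalamus in 3 of 3 cases. The untested genes of this class, with means under 10 in both tissues, had the higher mean in the hypothalamus. Against the brainstem these were 2.21 and 1.65 for Col6a4, 8.23 and 3.32 for Col6a5, and 4.03 and 2.73 for Col6a6. Col6a1 measured 29.1 ± 6.03 against 46.7 ± 15.5 in the brainstem (SD, n = 16), with a log2 difference of -0.63 ± 0.13 (adjusted p = 0.000114, limma). Col6a2 gave -0.51 ± 0.12 and Col6a3 -0.46 ± 0.14. In sham air alone Col6a3 passed at -0.86 (adjusted p = 0.0239, limma), and this call was lost without brainstem sham air 3 (0.0794) or 4 (0.124), without hypothalamus sham air 1 (0.0775), or without the libraries rich in fibroblast or choroid plexus markers (0.128).

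Basement membrane collagens were higher in the hypothalamus in 4 of 6 cases and lower in 0. Col4a4 measured 364 ± 37.6 against 221 ± 25.4 (SD, n = 16), a log2 difference of 0.72 ± 0.06 (adjusted p = 1.50e-11, limma). Its head-to-head partner Col4a3 gave 0.56 ± 0.09 (adjusted p = 2.27e-06, limma), Col4a6 0.71 ± 0.14 and Col4a2 0.46 ± 0.06. The most widespread vascular chain, Col4a1, measured 410 ± 35.8 against 381 ± 37.4 and did not pass at 0.11 (adjusted p = 0.0687, limma), and Col4a5 did not pass at 0.02 (adjusted p = 0.888, limma). All 12 tested endothelial markers were lower in the hypothalamus, where their sum ran from 2387 to 4091 against 3152 to 5691 in the brainstem. The part of endothelial content in the type IV differences was not tested.

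Of the 7 FACIT genes at a mean of 10 or more in both tissues, 3 were lower in the hypothalamus and 0 higher. Col20a1 measured 20.3 ± 6.28 against 39.2 ± 10.2 (SD, n = 16), a log2 difference of -0.95 ± 0.12 (adjusted p = 1.21e-07, limma). Col16a1, found on fibrils and in microfibrils of skin and cartilage, measured 300 ± 32.8 against 402 ± 71.5 (-0.41 ± 0.06), and the cartilage chain Col9a3 gave -0.30 ± 0.09. Col22a1, a collagen of the muscle-tendon junction, averaged 16.9 in the hypothalamus and 7.32 in the brainstem, and Col28a1 ran from 0 to 8.21 in the hypothalamus and from 4.55 to 20.6 in the brainstem. These values are a description only, since each of these genes entered through the tissue where it is higher. Col8a2, a short-chain network gene, had the widest scatter of the tested members within brainstem groups (coefficient of variation 79.6%) and did not pass at 0.56 (adjusted p = 0.0513, limma). Col7a1, Col8a1, Col9a2, Col12a1, Col14a1, Col18a1, Col19a1 and Col24a1 did not pass either.

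**Figure D2:**
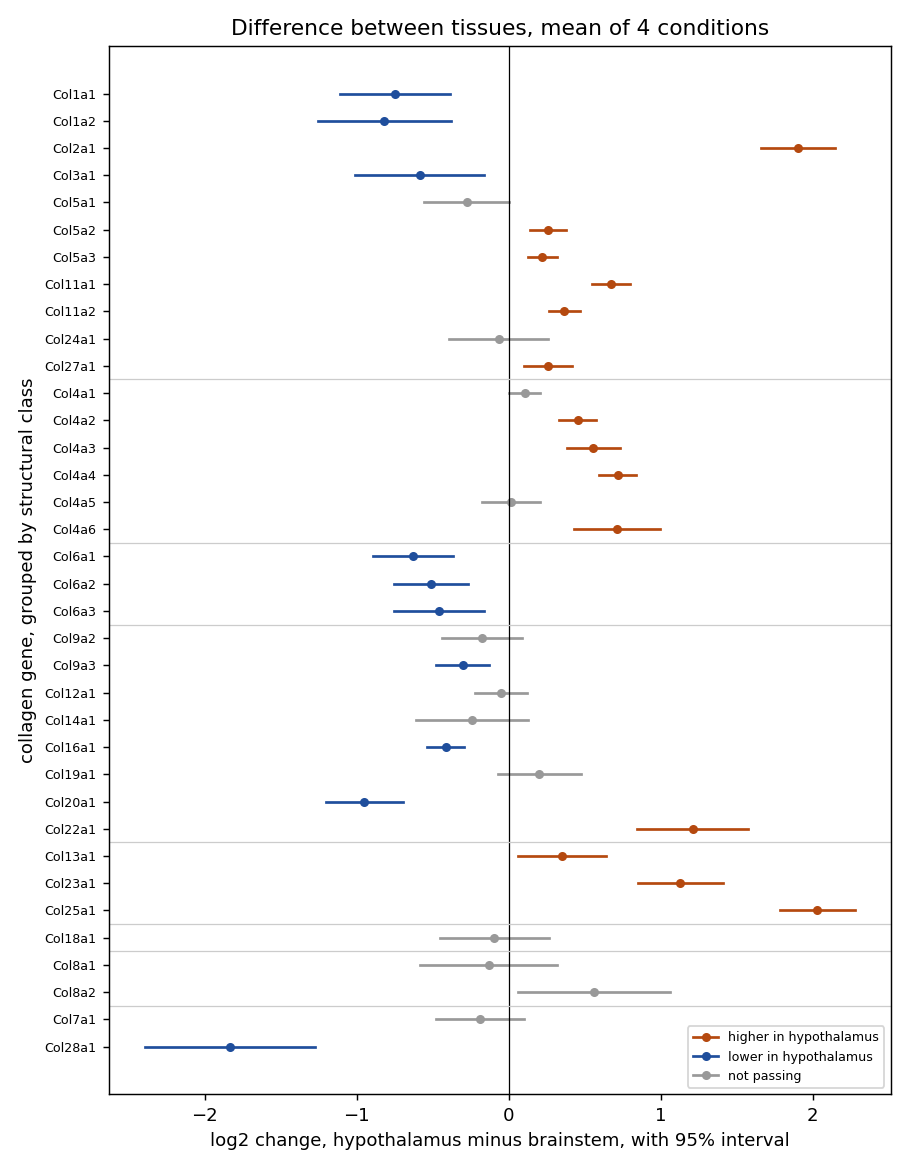
Log2 difference between hypothalamus and brainstem averaged over the 4 conditions (x axis) for the 36 tested collagen genes, with 95% intervals from limma and colours for higher, lower and not passing. Col25a1 lies at 2.03 and Col2a1 at 1.90 on the right and Col20a1 at -0.95 on the left. Col22a1 and Col28a1 are plotted too but entered through the tissue where they are higher.

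In sham rats, ozone changed 3 of the 36 members in the hypothalamus, 2 higher and 1 lower, against 1.59% of all genes tested (0.932% higher and 0.655% lower). Col7a1 and Col20a1 rose and Col12a1 fell. On recovered reads edgeR called 2 and DESeq2 3, and the median log2 change was 0.13 over the members, 27 of 36 of them positive, against -0.004 over all genes. Without the 3 liver-rich hypothalamus libraries 0 members passed, and 0 passed either without any 1 of sham air 3, sham air 4, sham ozone 17 and sham ozone 20, which are not liver-rich.

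Col12a1, a FACIT chain that coats type I fibrils, measured 116, 123, 127 and 128 normalized counts in sham hypothalamus in air and 61.8, 74.8, 80.2 and 99.2 in ozone. The groups did not overlap, and the lowest value was that of the liver-rich library sham ozone 18. The ADREX groups overlapped with sham air, at 104, 108, 110 and 129 in air and 96.7, 117, 125 and 128 in ozone. In sham rats the mean went from 123 ± 5.26 to 79.0 ± 15.5 (SD, n = 4), a log2 change of -0.66 ± 0.14 (adjusted p = 0.0211, limma; 0.0254 by edgeR; 0.00342 by DESeq2). The call was lost in 8 of 29 alternatives: with the compared groups alone (0.0714), without sham air 1 (0.0672), 3 (0.0639) or 4 (0.0688), without sham ozone 17 (0.0728), 18 (0.0519) or 20 (0.0542), and without the liver-rich libraries (-0.57, 0.0885). In the brainstem Col12a1 spanned 79.7 to 162 with no call.

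Col7a1, the anchoring fibril collagen of skin, measured 10.5, 15.99, 16.1 and 24.1 in sham hypothalamus in air and 34.5, 36.3, 40.4 and 41.6 in ozone. Every ozone library lay above every air library. The ADREX groups measured 15.05, 15.2, 19.6 and 25.95 in air and 18.9, 20.7, 22.5 and 34.0 in ozone, where only the highest came near the sham ozone range. In sham rats the mean rose from 16.7 ± 5.57 to 38.2 ± 3.36 (SD, n = 4), a log2 change of 1.20 ± 0.25 (adjusted p = 0.0223, limma). The call was lost in 7 of 28 alternatives: without sham air 2 (0.0740), 3 (0.0669) or 4 (0.0644), without sham ozone 17 (0.0800), 19 (0.0601) or 20 (0.0526), and without the liver-rich libraries (1.04, 0.103). In sham brainstem the same gene measured 16.2, 20.5, 22.8 and 29.2 in air and 27.3, 35.5, 40.1 and 44.9 in ozone, a change of 0.72 ± 0.31 that did not pass (adjusted p = 0.556, limma).

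Col20a1, a FACIT gene, measured 6.71, 11.3, 15.2 and 16.8 in sham hypothalamus in air and 22.6, 22.7, 26.4 and 30.3 in ozone, without overlap. The lowest air value was that of the liver-rich library sham air 2. The log2 change was 1.03 ± 0.25 with adjusted p = 0.0499 (limma), at the edge of the threshold. The call was lost in 22 of 28 alternatives, with adjusted p up to 0.161 without the liver-rich libraries. By edgeR adjusted p was 0.0577. Leaving out sham air 2, 3 or 4 gave 0.123, 0.132 and 0.0670. Leaving out sham ozone 17, 18, 19 or 20 gave 0.0999, 0.0691, 0.123 and 0.125. Leaving out any 1 of ADREX air 65 to 68 or ADREX ozone 81 to 83 gave 0.0604 to 0.0659. Col24a1, a minor fibrillar chain of developing bone, had the same arrangement but did not pass, with 11.5, 11.6, 14.4 and 17.9 in air and 22.7, 23.4, 28.5 and 28.5 in ozone (0.86 ± 0.22, adjusted p = 0.0706, limma). Log2 changes ran from -0.05 for Col11a1 to 0.40 for Col18a1, and none passed, among the 11 tested genes of the panel of widely studied collagens, which were Col1a1, Col1a2, Col3a1, Col4a1, Col4a2, Col4a5, Col5a1, Col6a1, Col11a1, Col18a1 and Col25a1.

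In the sham brainstem 0 of 36 members passed for ozone, against 0.884% of all genes. By unadjusted p under 0.05 there were 2, Col4a3 and Col7a1, against 1128 of all 14814 genes tested. On recovered reads edgeR and DESeq2 each called 1 member. Col4a3 measured 71.7, 75.4, 89.2 and 91.7 in air and 111, 125, 142 and 145 in ozone. The groups did not overlap, the mean being 81.99 ± 9.92 in air and 131 ± 15.8 in ozone (SD, n = 4), and the log2 difference was 0.67 ± 0.16 with adjusted p = 0.0621 (limma). It passed by edgeR (0.0485) and DESeq2 (0.0134), with limma sample weights (0.00165), and without ADREX air 65 (0.0390) or ADREX ozone 81 (0.0192). The next after Col7a1 was Col11a1 at -0.23 (adjusted p = 0.837, limma). Members and all genes had medians of 0.001 and -0.003.

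**Figure D3:**
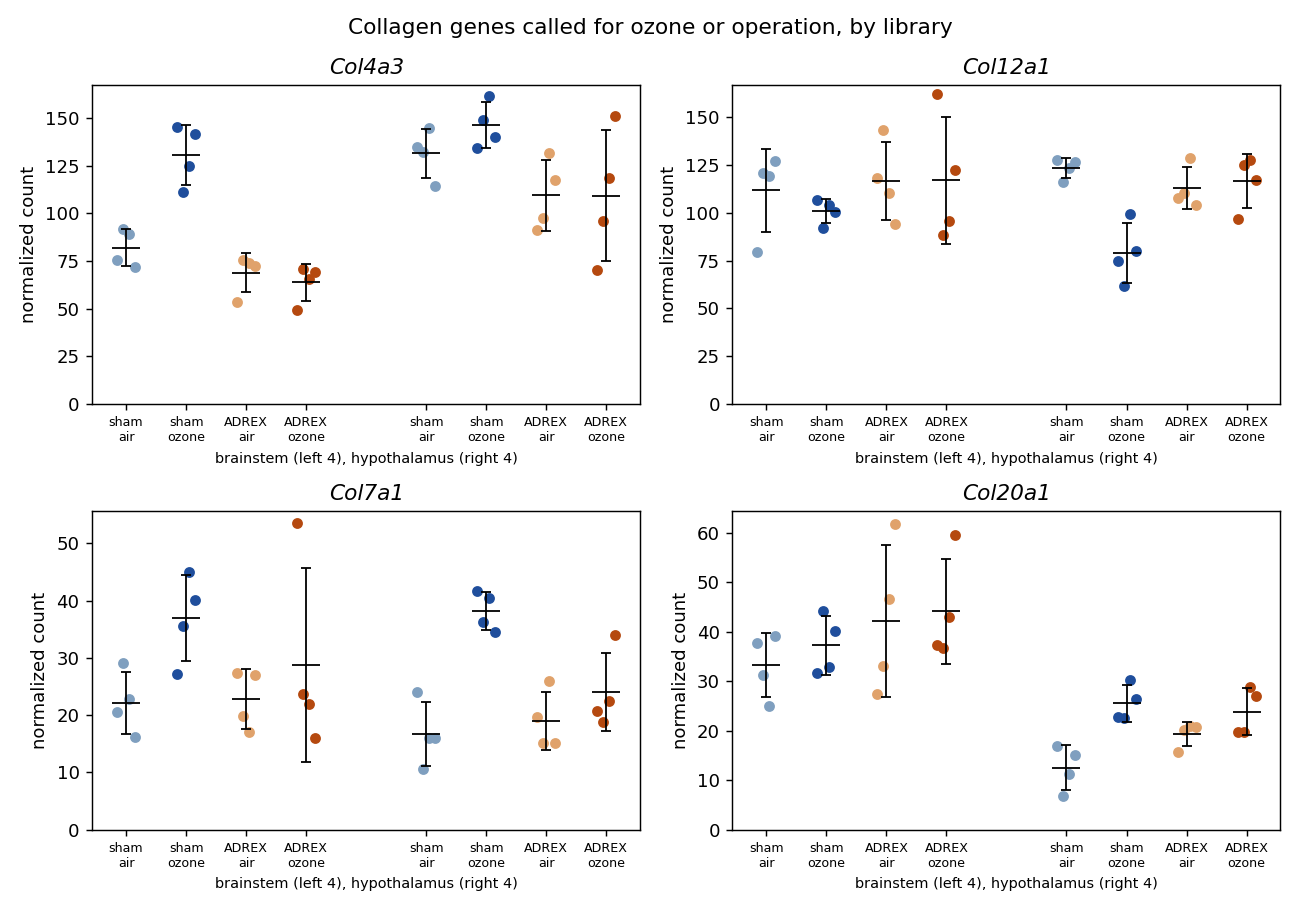
Normalized counts per library (points) of Col4a3, Col12a1, Col7a1 and Col20a1 in the 8 groups, with the mean and SD of the 4 libraries. Col4a3 in brainstem sham ozone lies at 111 to 145, above the 49.2 to 91.7 of the other brainstem groups, and Col12a1 in hypothalamus sham ozone at 61.8 to 99.2.

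In ADREX rats the ozone comparison gave 0 of 36 members in either tissue, against 0.0% of all genes. Unadjusted p was under 0.05 for 2 members in the brainstem and 1 in the hypothalamus, against 875 and 1177 of all 14814 genes. By edgeR and DESeq2, 0 members were called in both. The smallest p in each tissue belonged to Col19a1, a FACIT collagen made by some neurons, at 0.77 ± 0.24 in the brainstem (adjusted p = 0.803, limma) and 0.64 ± 0.30 in the hypothalamus (adjusted p = 0.594, limma). It was followed by Col28a1 (0.85) and Col4a6 (0.51) in the brainstem and by Col6a1 (-0.44) and Col6a2 (-0.39) in the hypothalamus. The median over the members was 0.08 in the brainstem and 0.10 in the hypothalamus, against -0.005 and -0.002 over all genes.

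**Figure D4:**
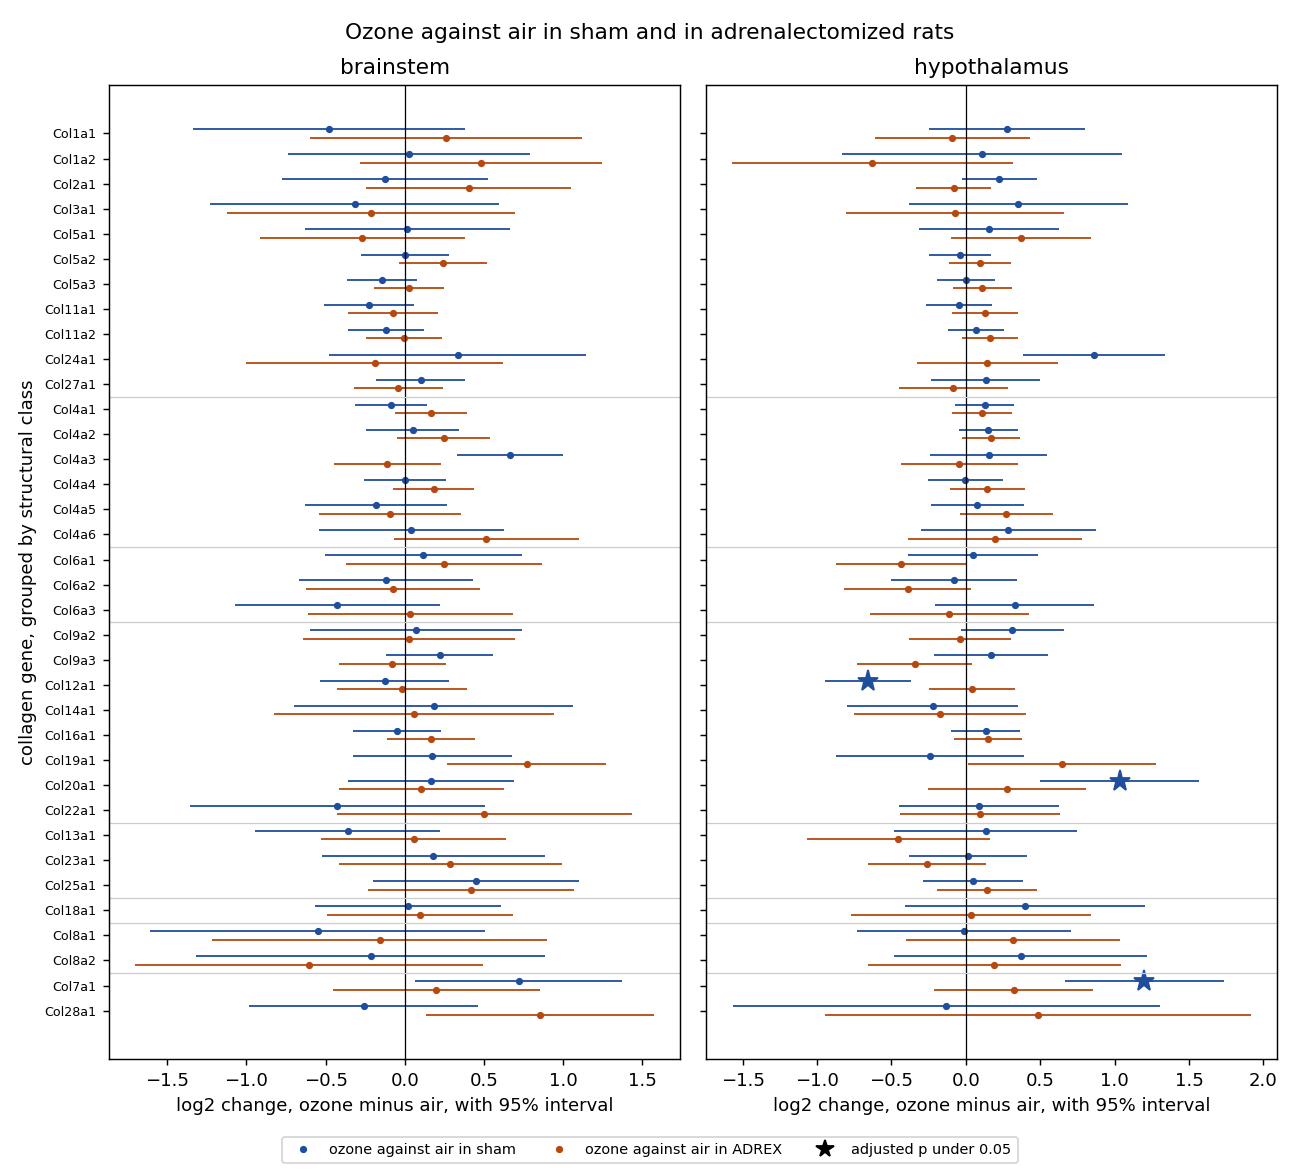
Log2 difference between ozone and air (95% intervals, limma) for the 36 tested members in sham and in ADREX rats, brainstem and hypothalamus side by side. Stars mark adjusted p under 0.05, which only Col7a1 (1.20), Col20a1 (1.03) and Col12a1 (-0.66) reached, all in sham hypothalamus.

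Adrenalectomy changed 1 member among ozone-exposed rats in each tissue. In the brainstem it was Col4a3, 1 of 36 members against 2.38% of all genes (1.23% lower). This chain of the type IV network, best known from the kidney glomerulus, measured 49.2, 65.7, 69.0 and 70.8 in ADREX rats in ozone against the 111 to 145 of sham rats in ozone. ADREX rats in air, at 53.5, 72.5, 73.9 and 75.4, overlapped with them, and sham rats in air began just above, at 71.7. The mean in ozone was 63.7 ± 9.89 in ADREX rats against 131 ± 15.8 in sham rats (SD, n = 4), a log2 difference of -1.03 ± 0.16 (adjusted p = 0.00134, limma; 0.00102 by edgeR; 9.16e-07 by DESeq2). The call held in all 29 alternatives, with adjusted p up to 0.0234, and without the liver-rich library the difference was -1.11 (adjusted p = 0.00169, limma). Over the members 24 of 36 differences were positive, with a median of 0.15 against -0.006 over all genes, and without ADREX ozone 81 these were 20 of 36 and 0.08 (-0.004 over all genes). That library was highest in the brainstem for 13 members, and its summed oligodendrocyte markers (279152 normalized counts) and neuron markers (30717) were the lowest of the brainstem. Their part in these values was not tested. Unadjusted p was under 0.05 for 7 members, against 1647 of all 14814 genes. Next after Col4a3 came Col16a1 at 0.36 ± 0.13 (adjusted p = 0.251, limma) and Col11a2 at 0.30 ± 0.11 (adjusted p = 0.269, limma). ADREX ozone 81 measured 639 for Col16a1 against 393 to 445 in the rest of its group, and 1378 for Col11a2 against 958 to 1163.

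The partner of Col4a3, Col4a4, measured 189, 214, 226 and 234 in sham brainstem in ozone and 201, 221, 260 and 284 in ADREX brainstem in ozone. These groups overlapped, and the difference was 0.15 ± 0.12 (adjusted p = 0.732, limma). The difference between the partners was not tested. In the hypothalamus Col4a3 measured 134, 140, 149 and 162 in sham ozone and 70.4, 96.2, 119 and 151 in ADREX ozone, where only the highest ADREX library entered the sham range (-0.47 ± 0.19, adjusted p = 0.302, limma). Sham air stood at 114, 132, 135 and 145 there, and ADREX air at 91.3, 97.3, 117 and 131.

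In the hypothalamus the member that passed for ADREX in ozone was Col12a1, 1 of 36 against 2.17% of all genes (0.999% higher). Its mean was 117 ± 13.9 in ADREX and 79.0 ± 15.5 in sham rats (SD, n = 4), a log2 difference of 0.57 ± 0.14 (adjusted p = 0.0378, limma), and the groups overlapped, since sham ozone reached 99.2 and ADREX ozone began at 96.7. By edgeR adjusted p was 0.0472 and by DESeq2 0.0176. The call was lost in 15 of 29 alternatives, including the fit of the compared groups alone (0.228), no filter (0.0553) and the removal of the liver-rich libraries (0.46, 0.0800) or of the libraries rich in fibroblast or choroid plexus markers (0.53, 0.106). Leaving out 1 library gave 0.0542, 0.0504, 0.0550 and 0.0571 for sham air 1 to 4. For sham ozone 17, 18 and 20 it gave 0.106, 0.0638 and 0.0890, for ADREX air 65 0.0509, and for ADREX ozone 82, 83 and 84 0.0999, 0.120 and 0.0758. Col7a1 lay lower in ADREX rats without overlap but did not pass (-0.68 ± 0.25, adjusted p = 0.255, limma). Unadjusted p was under 0.05 for 5 members, against 1783 of all 14814 genes. The medians were 0.02 over the members and 0.005 over all genes.

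Among rats in filtered air, adrenalectomy gave 0 of 36 members in either tissue against 0.0% of all genes. Unadjusted p was under 0.05 for 0 members in the brainstem and 6 in the hypothalamus, against 572 and 837 of all 14814 genes. By edgeR and DESeq2, 0 members were called. Col1a1 led in the hypothalamus, with 78.5, 81.8, 86.5 and 104 in sham rats and 115, 143, 148 and 252 in ADREX rats. The groups did not overlap, and the log2 difference was 0.85 ± 0.25 (adjusted p = 0.687, limma). Col2a1 likewise did not overlap (0.41 ± 0.12, adjusted p = 0.687), and Col3a1 came next at 0.93 ± 0.35 (adjusted p = 0.806, both limma). The highest Col1a1 and Col3a1 values in ADREX air were those of library 67, whose fibroblast sum (4281) and choroid plexus sum (7750) were the highest of the hypothalamus. In the brainstem the smallest p belonged to Col9a3 (0.33), Col1a2 (-0.72) and Col24a1 (0.68), with adjusted p = 1 (limma). Medians over the members were -0.04 in the brainstem and 0.11 in the hypothalamus, against -0.0002 and 0.001 over all genes.

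The interaction asks whether the ozone difference itself differed between ADREX and sham rats, and no member passed it in either tissue (0 of 36 against 0.169% of all genes in the brainstem and 0.142% in the hypothalamus; edgeR and DESeq2 called 0). The leading members were those already described. Col4a3 in the brainstem gave -0.78 ± 0.22 with a 95% interval of -1.25 to -0.30 (adjusted p = 0.366, limma). Col12a1 in the hypothalamus gave 0.70 ± 0.19 with an interval of 0.29 to 1.11 (adjusted p = 0.382, limma), and Col7a1 there gave -0.88 ± 0.36 with an interval of -1.63 to -0.12 (adjusted p = 0.960, limma). Unadjusted p was under 0.05 for 2 members in the brainstem and 4 in the hypothalamus, against 783 and 652 of all 14814 genes. The sham ozone change did not differ between the tissues for any of the 36 members by adjusted p (0 called against 0.0% of all genes, edgeR and DESeq2 also 0). At unadjusted p under 0.05 there were 3 members, against 427 of all 14814 genes. These were Col20a1 at 0.87, Col12a1 at -0.53 and Col4a3 at -0.51, each with adjusted p = 0.984 (limma). The ozone and adrenalectomy comparisons within a tissue share the sham ozone libraries, so a low or high sham ozone group enters both.

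Col18a1, the multiplexin, was the tested member with its highest values in the liver-rich libraries of both tissues. Its 4 values were 93.1, 123, 125 and 306 in brainstem sham ozone, 76.7, 80.6, 110 and 229 in hypothalamus sham air, 96.5, 119, 139 and 297 in hypothalamus sham ozone and 106, 110, 122 and 244 in hypothalamus ADREX air. In each of these groups the highest value was that of the liver-rich library. In the hypothalamus Col18a1 was the only tested member whose 3 liver-rich libraries lay above all the others, and in the brainstem the liver-rich library was highest for Col14a1 and Col18a1. Brainstem sham air 4 was the highest brainstem library for 9 members, among them Col1a1, Col1a2, Col3a1, Col5a1, Col6a2 and Col6a3. Brainstem ADREX ozone 81, the deepest library at 12.39 M reads, was highest for 13 members including Col2a1, Col4a2, Col11a2 and Col16a1. The shares of all genes highest in these libraries were not counted. The part of liver transcripts, fibroblast content or depth in these values was not tested. Within-group scatter was among the smallest for Col4a1, at 9.33% of the mean in the brainstem and 8.48% in the hypothalamus, against 57.7% for Col1a1 and 63.9% for Col3a1 in the brainstem.

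**Figure D5:**
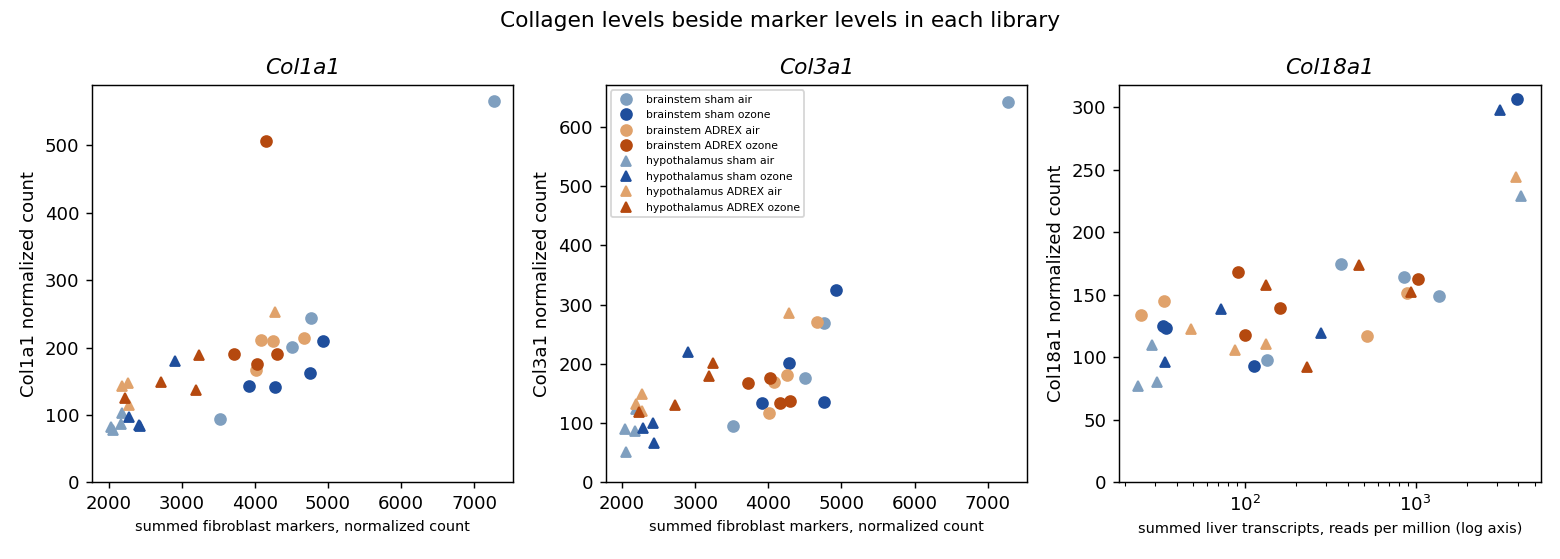
Normalized counts of Col1a1 and Col3a1 against the summed fibroblast markers, and of Col18a1 against liver transcripts per M reads (log axis), 1 point per library. The 4 liver-rich libraries lie right of 2000 per M reads and hold Col18a1 at 229 to 306, and brainstem sham air 4 has the highest fibroblast sum and the highest Col1a1 and Col3a1.

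Some genes that fold, modify and bind collagen passed in the same treatment comparisons. Serpinh1 (HSP47), the chaperone dedicated to procollagen, measured 365, 366, 400 and 462 in sham brainstem in air and 245, 261, 263 and 268 in ozone. In the hypothalamus it measured 278, 310, 318 and 346 in air and 165, 197, 202 and 207 in ozone. Sham ozone lay below sham air in both tissues without overlap, by -0.61 ± 0.13 (adjusted p = 0.0243, limma) in the brainstem and -0.70 ± 0.13 (adjusted p = 0.00925, limma) in the hypothalamus. Among ozone-exposed rats it was higher after adrenalectomy, by 0.53 ± 0.13 (adjusted p = 0.0312, limma) and 0.68 ± 0.13 (adjusted p = 0.00722, limma). In the hypothalamus both calls held in 29 of 29 alternatives. In the brainstem the ozone call was lost in 6 of 29, without sham air 3 (0.0942) or 4 (0.0772), sham ozone 17 (0.0624), 19 (0.106) or 20 (0.0774), or the libraries rich in fibroblast or choroid plexus markers (0.0773). The ADREX call there was lost in 9, with adjusted p from 0.0501 to 0.106, and any 1 of sham ozone 17 to 20 or ADREX ozone 82 to 84 ended it. P4ha1, a prolyl hydroxylase subunit needed for a stable helix, fell in sham hypothalamus from 332 ± 12.2 to 197 ± 22.5 (SD, n = 4; -0.75 ± 0.15, adjusted p = 0.0146, limma), a call lost without sham air 1 (0.0515) or 3 (0.0534) or sham ozone 17 (0.0510) or 20 (0.0573). Elsewhere P4ha1 did not pass for ozone but was also lower. In sham brainstem it ran from 328 to 366 in air and from 194 to 227 in ozone. ADREX means in air and ozone were 351 and 269 in the brainstem and 328 and 219 in the hypothalamus, with overlap. Of the 32 tested genes of collagen synthesis and processing, ozone in sham rats lowered 1 in the brainstem and 2 in the hypothalamus. Among all genes 0.884% and 1.59% passed there, either way. ADREX in ozone raised 1 and 2, against 2.38% and 2.17% of all genes either way. The same shares apply to the lists that follow. The second raised gene in the hypothalamus was Adamts14, a procollagen-trimming protease (1.62 ± 0.35, adjusted p = 0.0186, limma). Its group means there were 10.5 in sham air, 4.77 in sham ozone, 9.75 in ADREX air and 15.5 in ADREX ozone. It reached the mean of 10 only with the ADREX ozone libraries counted, so its values are a description only.

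The list of 11 tested receptor genes holds collagen receptors and related integrin chains, and its 2 members that passed for a treatment are both known as laminin-binding chains. Itga6 fell with ozone in sham hypothalamus (-0.53 ± 0.07, adjusted p = 0.00133, limma), and Itga7 was lower after ADREX in ozone (-0.71, adjusted p = 0.0161). No gene of the list passed in the brainstem, and its collagen-binding members such as Itga1, Ddr1 and Ddr2 did not pass for a treatment in either tissue. Among 31 partner matrix proteins, the laminin chain Lama4 was higher in ADREX brainstem in ozone (1.03 ± 0.18, adjusted p = 0.00332, limma) and fell with ozone in sham hypothalamus (-0.68, adjusted p = 0.0331). Sparc, a collagen-binding matricellular protein, was lower after ADREX in ozone by -0.46 in the brainstem and -0.65 ± 0.07 in the hypothalamus (adjusted p = 0.0283 and 3.7e-05, limma), and fibronectin, Fn1, by -0.82 in the hypothalamus (adjusted p = 0.0493, lost in 16 of 29 alternatives).

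Of 21 tested turnover genes, 2 fell with ozone in sham brainstem, the proteases Adamts1 (-0.99) and Mmp15 (-0.46). Over all genes, 0.884% and 1.59% passed for ozone in sham brainstem and hypothalamus, and 2.38% and 2.17% for ADREX in ozone. In ADREX rats in ozone 3 were higher in the brainstem, Adamts1 (1.28), Mmp15 (0.55) and Adamts4 (0.62), and the metalloproteinase inhibitor Timp3 was lower (-0.66). In the hypothalamus Adamts4 fell (-0.56) with ozone in sham rats, and Mmp15 was higher after ADREX in ozone (0.48). Of 20 genes of TGF-beta and CTGF signalling, Ctgf was lower after ADREX in ozone in both tissues (-2.09 in the brainstem, adjusted p = 0.00048; -2.61 in the hypothalamus, adjusted p = 7.1e-05, limma), as was Thbs1 in the hypothalamus (-0.80). Of the genes named from the last 4 lists and of Adamts14, calls that held in all alternatives run were those of Itga6, Adamts1 (both comparisons), Mmp15 for ADREX in the brainstem, Adamts4 for ozone in the hypothalamus, Sparc for ADREX in the hypothalamus, and Ctgf in both tissues. The others were lost in 1 to 16 alternatives. None of these 5 lists had a member pass for ozone in ADREX rats, for ADREX in air or for the interaction. Between tissues, the lists had 6 higher and 14 lower genes for synthesis, 2 and 5 for receptors, 8 and 17 for partner matrix proteins, 5 and 9 for turnover and 5 and 5 for TGF-beta and CTGF signals. Of all genes tested, 27.5% were higher and 27.0% lower in the hypothalamus, so many such calls occur in any list.

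Markers of the cells that make vascular collagen moved with some of these comparisons. Of 12 tested endothelial markers, 3 fell with ozone in sham rats in each tissue (Slco1c1 and Kdr in both, Tie1 in the brainstem and Emcn in the hypothalamus), and 6 were higher after ADREX in ozone in each. The shares of all genes passing were 0.884% and 1.59% for ozone in sham brainstem and hypothalamus, and 2.38% and 2.17% for ADREX in ozone. The endothelial sum in the brainstem ran from 4146 to 4705 in sham air, 3152 to 3839 in sham ozone and 4503 to 5691 in ADREX ozone. In the hypothalamus it ran from 3304 to 3632, 2387 to 2710 and 3050 to 3494. Brainstem Col4a3 was higher in sham ozone, where this sum was lowest. Fibroblast, mural and choroid plexus lists had 0 members pass in the ozone and adrenalectomy comparisons. The part of endothelial content in these results was not tested.

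The 7 untested members had means under 10 in both tissues. Nearest to the limit were Col17a1, a hemidesmosome collagen, at 9.33 in the brainstem, Col9a1 at 8.66 and Col6a5 at 8.23 in the hypothalamus, and just inside it were Col28a1 at 11.7 in the brainstem and Col22a1 at 16.9 in the hypothalamus. Col9a1, the cartilage FACIT chain, ranged from 2.27 to 14.9 over all libraries. Col6a6, Col26a1 and Col6a4 averaged 4.03, 4.72 and 2.21 in the hypothalamus, and Col10a1, the collagen of hypertrophic cartilage, was at 0 in 18 of 32 libraries.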

How the data were processed

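Messenger RNA libraries of 2 tissues were sequenced, 32 in all. The authors deposited 1 table of normalized read counts, treated here as a signal. Partek, DESeq2 and the rat build rn6 are named, without roles, per the submitters' processing notes. The aligner, the annotation, the strand and the handling of reads shared between near-identical genes were not given in the sources used here. Values of a library were all whole multiples of 1 step, and dividing by it gave whole reads for 100.0% of values (tolerance 0.001), 6.44 to 12.39 M per library. Groups came from the labels.

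Tests used log2(value + 1). Genes averaging 10 or more over the 16 libraries of either tissue were tested with limma 3.58.1 in R 4.3.3 (mean-dependent prior variance, Benjamini-Hochberg adjustment over 14814 genes, call at adjusted p under 0.05). Each tissue was fitted with 4 group means, and contrasts between tissues with 8 over 32 libraries. Such log2 changes understate those of low genes. The script was tested on simulated data. The edgeR fit of recovered reads gave 129 called genes in brainstem and 234 in hypothalamus for ozone in sham rats, and 348 and 314 for ADREX in ozone.

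Members, classes, pathway and marker lists were chosen with earlier results of these data known. Named genes were a panel of 12 collagens, every member called for ozone, operation or their interaction, the 10 largest called tissue differences each way at a mean of 50 or more, and, where none passed, the 3 smallest p. Of each pathway list up to 6 called genes per contrast are named, except 1 turnover gene that is not reported here. Other called members between tissues and some not passing were named after their values were seen.

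Alternatives were pseudocounts of 0.5 and 5, no filter, a mean of 50 or of 10 over the fit's libraries, median-of-ratios and quantile scaling, limma sample weights, edgeR 4.0.16 and DESeq2 1.42.0 on recovered reads, a replicate block for tissue contrasts, the compared groups alone and each library left out. Chosen after seeing the data were fits without the 4 liver-rich libraries and without the 3 rich in fibroblast or choroid plexus markers. Promoter sequences are from RefSeq, GRCr8, and no coordinates of rn6 were used.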

Additional observations from a re-analysis of the deposited data

Results flagged for a closer look

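Some libraries stood apart from the other 3 of their group, by Dixon's ratio over the 95% critical value. This occurred in 12 of 128 groups examined, over 16 genes in 8 groups each. The ratio passes in about 1 in 20 groups of independent, normally distributed values. Here the counts were not transformed and the genes share libraries, so that rate does not apply directly and the 12 are a description only. Values are normalized counts. Brainstem ADREX ozone 84 was high for Col1a1, at 505.6 against 175.6 to 191.1. Hypothalamus sham ozone 18 was high for Col1a1, at 180.6 against 83.28 to 97.46, and brainstem ADREX air 68 was low, at 166.7 against 209.1 to 213.6. For Col1a2, brainstem ADREX air 66 measured 173.1 against 103.5 to 107.1.

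Brainstem ADREX ozone 81 was low for Col4a5, at 72.25 against 132.2 to 144.5, and for Col11a1, at 259.7 against 397.9 to 410.7. Brainstem ADREX air 65 was low for Col4a3, at 53.46 against 72.51 to 75.35. Brainstem sham air 1 was low for Col12a1, at 79.7 against 119.3 to 127.1. Hypothalamus ADREX air 67 was high for Col5a1, at 56.93 against 33.68 to 36.31, and hypothalamus ADREX air 65 was low for Col20a1, at 15.7 against 20.06 to 20.93.

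Col18a1 stood apart in brainstem sham ozone 18, at 306.2 against 93.14 to 125.1, and in hypothalamus ADREX air 68, at 244.4 against 106 to 122.2. Both are liver-rich libraries.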

How the results depend on the processing

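For ozone in sham hypothalamus, 3 members were called in the fit as described, 4 with sample weights, 1 with a mean of 50 or more, 1 with the compared groups alone, 0 without the liver-rich libraries and 0 to 3 when each library was left out. It was 1 without sham air 2, sham ozone 18 or sham ozone 19 and 0 without sham air 3 or 4, sham ozone 17 or sham ozone 20. For ozone in sham brainstem, 0 were called, 2 with sample weights, 1 by edgeR, 1 by DESeq2 and 0 to 1 with each library left out. For ADREX in ozone, the brainstem count of 1 became 2 with sample weights and was 1 whichever library was left out. The hypothalamus count of 1 became 3 with sample weights and 0 with no filter, with the compared groups alone, without the liver-rich libraries or without those rich in fibroblast or choroid plexus markers, and 0 to 1 with each library left out. The tissue count of 24 ran from 18 to 26, and from 23 to 26 with each library left out. In sham air the count of 16 ran from 12 to 20, and from 12 to 17 with each library left out. The remaining comparisons gave 0 under every alternative run. No called value changed sign. Apart from the edgeR counts above, calls over all genes under the alternatives are not given here. The moves in these counts therefore describe the members only, and their cause was not tested.

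Replicate numbers recur in both tissues. As a block they gave 14 higher and 10 lower members between tissues and 10 and 6 in sham air, as without it. Of 16 same-numbered pairs, 6 correlated above 0.1 (r from -0.521 to 0.607) and 4 correlated best with their own number, so the numbers were not used as pairs. As a hint from the data and not the design, red blood cell transcripts were highest in number 17 in both tissues (3838 in the brainstem and 2861 in the hypothalamus) and lowest in number 84 (49.9 and 46.9), and both number 18 libraries were liver-rich. Numbers 68 and 2 were liver-rich in the hypothalamus only. Their liver transcripts per M reads were 3853 and 4160 there, against 33.54 and 1378 in the brainstem. A planned removal of libraries by a liver list with transferrin was not run, since it would take out 12 libraries. Low counts limit precision for members near the mean of 10, and 4 libraries a group limit the treatment comparisons.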
